A study of Mus musculus with 9 samples.

Results

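The 10 genes described here encode carriers that move amino acids across the plasma membrane: Slc1a1, Slc1a2, Slc1a4 and Slc1a5 of the glutamate and neutral amino acid family, Slc6a9, Slc6a12 and Slc6a13 of the glycine, betaine and GABA family, and Slc16a10, Slc43a1 and Slc43a2, which carry aromatic and large neutral amino acids. They were chosen by gene symbol, and all 10 were found among the 37583 genes of the deposited liver expression table. Liver RNA was sequenced in 9 samples of adult male C57Bl6 mice, 3 in each of 3 groups, aged 16 to 20 weeks and fasted for 6 h. Mice labelled Gcgr-/- and given PBS are called knockout-labelled. Mice labelled Gcgr+/+ and treated over 10 days with weekly intraperitoneal doses of 10 mg/kg of a humanized antibody to the glucagon receptor are called antibody-labelled. Mice called wild type were labelled Gcgr+/+ and given PBS. The sources used here name neither the disrupted stretch of Gcgr nor the cells that lost it, and the wild-type mice received PBS rather than a control antibody. The series asks how interrupting glucagon action in liver, where the hormone promotes amino acid uptake and breakdown, relates to the growth of pancreatic alpha cells.

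Slc1a1, Slc1a2 and the Slc6 carriers couple their substrate to sodium entering the cell and can load it against a gradient. Slc1a4 and Slc1a5 exchange neutral amino acids, while Slc16a10 and the Slc43 carriers let amino acids pass either way by facilitated diffusion. In liver, glutamate uptake by Slc1a2 is a property of the hepatocytes around the central vein, which also make glutamine. Betaine taken up by hepatocytes serves as an osmolyte and as a methyl donor, and glycine as a substrate of several detoxifying and methyl-transferring enzymes.

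The check of the labels came first, and it bears on every direction given for either labelled group. Gcgr, the glucagon receptor gene, had 27365, 19656 and 21129 normalized counts in the knockout-labelled libraries, 2271, 2496 and 1808 in the antibody-labelled libraries, and 19547, 17565 and 18450 in wild type. The receptor transcript was thus at 123% of the wild-type mean in the knockout-labelled libraries and at 11.8% in the antibody-labelled ones. Whether the labels of these groups are exchanged, or a disrupted allele is still transcribed, was not tested. All groups keep the names of their labels. A normalized count is the authors' scaled value per gene and library, and no value lies under 1. The samples are described with 50 M reads each. On an estimate of what 1 read is worth in each library, the gene values summed to 10.99 to 30.1 M reads, with the fewest in knockout-labelled library 1. That library also stood apart on the first principal component of all tested genes, at 84.3 against -19.2 to 1.71 for the other 8. Hepatocyte markers were high in all 9 libraries, with 6 markers summing to between 1150000 and 2183000 normalized counts. Among the markers of other tissues, 3 of 4 pancreatic acinar and 3 of 4 skeletal muscle markers sat at the floor of 1 in all libraries. No gene of any marker list of other cell types passed the test described below (lowest limma adjusted p = 0.0663).

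None of the 10 transporters passed the test over all genes in any of the 3 comparisons. The lowest levels relative to wild type were those of Slc43a1, Slc1a4 and Slc1a2. Slc43a1 averaged 50.05% of the wild-type mean in knockout-labelled and 28.0% in antibody-labelled livers. Slc1a4 averaged 42.5% in knockout-labelled and 38.3% in antibody-labelled livers, and Slc1a2 averaged 61.2% in knockout-labelled and 64.2% in antibody-labelled livers. Slc6a9 stood at 151% of wild type in antibody-labelled livers and at 99.8% in knockout-labelled livers. The test was limma's, fitted to log2(value + 1) over all 9 libraries, with Benjamini-Hochberg adjustment over the 20029 genes tested and a threshold of 0.05. All 10 transporters passed the filter on low values, which asked for a value above 1 in at least 3 libraries.

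The promoter sequences of 4 of these genes are printed here, because Slc1a2, Slc1a4 and Slc43a1 varied together over the 9 livers and Slc6a9 went the other way in the antibody-labelled mice. Each runs from 250 bases before the RefSeq start site to 10 bases after it, on the strand of the gene, in build GRCm38.p6. The positions are chr2:102706188-102706447 (plus strand) for Slc1a2, chr11:20332704-20332963 (minus strand) for Slc1a4, chr2:84840073-84840332 (plus strand) for Slc43a1 and chr4:117849100-117849359 (plus strand) for Slc6a9. Capitals mark the letters TGACG, the core of the cAMP response element through which glucagon acts on many genes, and TGATGNAA, an element of the amino acid stress factor ATF4, on either strand.
Slc1a2: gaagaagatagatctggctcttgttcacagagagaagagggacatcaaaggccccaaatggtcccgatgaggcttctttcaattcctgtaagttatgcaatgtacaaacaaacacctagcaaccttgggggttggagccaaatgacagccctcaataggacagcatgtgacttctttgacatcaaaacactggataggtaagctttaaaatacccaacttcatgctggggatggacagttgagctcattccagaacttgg
Slc1a4: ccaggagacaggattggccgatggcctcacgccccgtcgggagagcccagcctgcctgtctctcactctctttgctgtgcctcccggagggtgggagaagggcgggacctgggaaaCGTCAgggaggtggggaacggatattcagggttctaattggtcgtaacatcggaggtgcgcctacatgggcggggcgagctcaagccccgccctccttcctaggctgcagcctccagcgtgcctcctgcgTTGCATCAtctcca
Slc43a1: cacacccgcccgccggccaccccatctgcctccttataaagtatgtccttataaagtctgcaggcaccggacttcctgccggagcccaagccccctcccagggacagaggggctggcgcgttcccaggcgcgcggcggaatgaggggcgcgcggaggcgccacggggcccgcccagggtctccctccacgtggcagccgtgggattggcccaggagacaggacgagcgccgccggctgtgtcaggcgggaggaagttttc
Slc6a9: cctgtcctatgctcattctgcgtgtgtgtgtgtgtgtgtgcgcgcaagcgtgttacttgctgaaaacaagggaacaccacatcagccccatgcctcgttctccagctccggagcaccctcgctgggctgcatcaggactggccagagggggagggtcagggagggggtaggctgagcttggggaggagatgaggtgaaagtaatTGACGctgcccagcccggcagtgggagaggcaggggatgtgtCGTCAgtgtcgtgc

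RefSeq windows of 300 bases, 250 before a start and 50 after it, were matched to 9 of the 10 transporters, 18 windows in all. The whole cAMP response element, TGACGTCA, was in none of the 18, and in 1.79% of all 32851 windows. TGACG was in 3 of the 18 windows, of Slc1a4, Slc6a9 and Slc6a12, and in 20.8% of all windows. In Slc1a4 it begins 134 bases before the start, and in Slc6a9 there are 2 matches, 46 and 4 bases before the start. The other two Slc6a9 windows held none of the motifs. TGATGNAA was in 1 of the 18, that of Slc1a4 across the start site, and in 3.97% of all windows. The windows of Slc1a2 and Slc43a1 held no match to any of these letters. The authors' gene positions are in the older build mm9. Judged by the shift between builds at Slc43a1, on the same chromosome, the Slc1a2 start used here appears to lie inside the gene. Which start these livers use was not tested. No measurement of factor binding or chromatin was made in these livers, so the matches describe letters only. G and C made up 45% of the printed Slc1a2 stretch, against 63.8% for Slc1a4, 69.6% for Slc43a1 and 60.8% for Slc6a9.

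The 10 genes differed in level over orders of magnitude when values were divided by exon length. Lengths were those of all exons of a gene in GENCODE M21, an annotation of GRCm38, whereas the authors' alignment used mm9, so levels between genes are approximate. Slc6a13, which carries GABA and taurine, was highest per kb of exon, with a mean of 4037 normalized counts per kb over the 9 livers and a range of 3139 to 5523. Slc6a12, the betaine and GABA carrier, followed at 1610 per kb, with a range of 1353 to 1895. Next came Slc16a10 at 1219 per kb, and its range of 1051 to 1715 overlapped that of Slc6a12.

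Slc1a2 held 713 per kb on average and Slc6a9 held 458, with ranges of 454 to 1014 and 291 to 723 that overlapped. Slc43a2 followed at 120 per kb (range 101 to 147) and Slc43a1 at 80.5 per kb (range 21.1 to 154), again overlapping. Slc1a1, Slc1a5 and Slc1a4 were lowest, at 31.5, 28.7 and 15.6 per kb, and their ranges of 25.4 to 45.3, 21.6 to 35.05 and 6.04 to 40.5 overlapped each other. Slc6a13 did not overlap its neighbour in this order, nor did Slc16a10 and Slc1a2, or Slc6a9 and Slc43a2. The low group rests on few reads: Slc1a4 had an estimated 5 to 106 reads per library and Slc1a5 had 20 to 97.2, while Slc1a2 had 1561 to 8543.

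**Figure D1:**
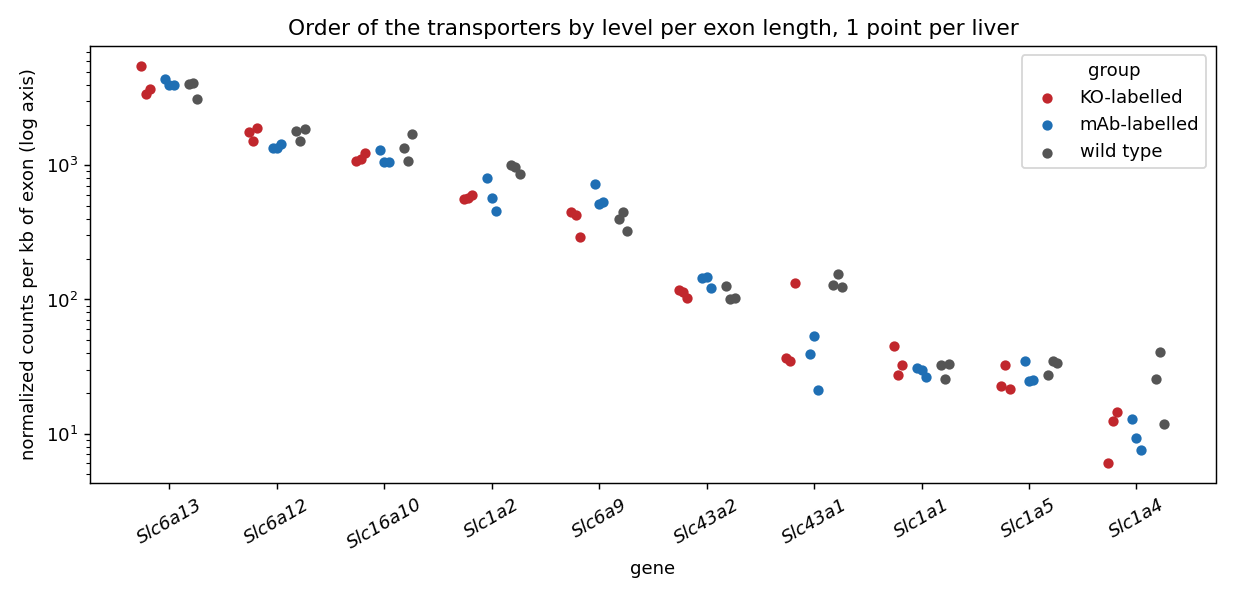
Normalized counts per kb of exon (y axis, log scale) for the 10 transporters (x axis, highest mean first), with 1 point per liver coloured by group. Slc6a13 lies between 3139 and 5523 and Slc1a4 between 6.04 and 40.5 per kb, and Slc43a1 between 21.1 and 154.

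Slc1a2 encodes the high-affinity glutamate carrier of pericentral hepatocytes (ENSMUSG00000005089, mm9 chromosome 2, 102498816 to 102630941, plus strand). Its level was 7404, 7524 and 7954 normalized counts in knockout-labelled livers, 10479, 7543 and 5968 in antibody-labelled livers, and 13311, 12852 and 11222 in wild type. All 6 livers of the labelled groups lay under the lowest wild-type liver, and antibody-labelled library 1 came closest to it. Bulk RNA does not tell fewer cells of a type apart from less RNA per cell. The group means were 7627 ± 289, 7997 ± 2289 and 12462 ± 1098 normalized counts in knockout-labelled, antibody-labelled and wild-type livers (SD, n = 3 each). The log2 fold change was -0.71 in knockout-labelled against wild type (SE 0.17, limma adjusted p = 0.105) and -0.67 in antibody-labelled against wild type (SE 0.17, limma adjusted p = 0.0937).

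Both comparisons use the same wild-type livers. Slc1a2 missed the threshold in each, although its unadjusted limma p was 0.0014 and 0.00191, ranking 265 and 409 among all genes tested. Without antibody-labelled library 1 the antibody-labelled change was -0.89 and passed (limma adjusted p = 0.0163), and it passed with a weight per library (adjusted p = 0.0368). Without antibody-labelled library 3 it was -0.48 and missed (limma adjusted p = 0.271), and over all 19 alternatives its adjusted p ran from 0.0163 to 0.316. In antibody-labelled against knockout-labelled livers Slc1a2 differed by 0.03 (95% interval -0.34 to 0.40). The gene overlaps an annotated antisense gene, Gm13872, that held 8.55 to 144 normalized counts, on average 0.331% of the level of Slc1a2.

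Slc1a2 is also a gene of astrocytes, so markers of nervous tissue are given beside it. The 4 markers Snap25, Syt1, Gfap and Mbp summed to 312 to 418 normalized counts in knockout-labelled livers, 545 to 650 in antibody-labelled livers and 584 to 739 in wild type. Snap25 was at the floor of 1 in all 9 libraries, and Gfap lay between 9.49 and 26.2. Syt1 made up most of the sum, with 224 to 351 in knockout-labelled, 464 to 552 in antibody-labelled and 492 to 635 in wild-type livers. The part of nervous tissue in the Slc1a2 values was not tested. None of the 3 tested markers passed in any comparison (lowest limma adjusted p = 0.0663, for Syt1 in knockout-labelled against wild type).

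Slc1a1 encodes the glutamate, aspartate and cysteine carrier found in many epithelia (ENSMUSG00000024935, chromosome 19, 28909539 to 28988450, plus strand). It had 374, 225 and 267 normalized counts in knockout-labelled livers, 255, 245 and 220 in antibody-labelled livers, and 267, 210 and 275 in wild type. Knockout-labelled library 1 was the single high value, and the other 8 livers lay together. Fitted log2 fold changes were 0.18 in knockout-labelled (SE 0.20, limma adjusted p = 0.728) and -0.06 in antibody-labelled livers (SE 0.20, limma adjusted p = 0.973), each against wild type. Without knockout-labelled library 1 the knockout-labelled value became -0.02, without wild-type library 2 it became 0.06, and without knockout-labelled library 2 it became 0.35. A pseudogene on the other strand within Slc1a1, Gm5822, held 493 to 643 normalized counts, more than the gene itself, and was also highest in knockout-labelled library 1. The use of strand in counting is not given in the sources used here, so reads of these overlapping genes cannot be told apart and the Slc1a1 values are uncertain.

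Slc1a4 exchanges alanine, serine, cysteine and threonine (ENSMUSG00000020142, chromosome 11, 20202183 to 20232716, minus strand). It had 23.7, 49.0 and 56.9 normalized counts in knockout-labelled livers, 50.9, 36.3 and 29.7 in antibody-labelled livers, and 100.3, 159 and 46.3 in wild type. The first and second wild-type livers were high and the third lay within the range of the labelled groups, so the groups overlapped. Its log2 fold change was -1.14 in knockout-labelled (SE 0.45, limma adjusted p = 0.288) and -1.23 in antibody-labelled livers (SE 0.45, limma adjusted p = 0.320), each against wild type. The size of the change depended on the wild-type libraries: it was -0.74 and -0.83 without wild-type library 2, and -1.62 and -1.71 without wild-type library 3. The knockout-labelled value was -0.77 without knockout-labelled library 1, whose level rests on an estimated 5 reads.

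Slc1a5 exchanges neutral amino acids including glutamine (ENSMUSG00000001918, chromosome 7, 17366695 to 17383623, plus strand), and it is low in normal liver. It had 94.9, 136 and 90.2 normalized counts in knockout-labelled livers, 146, 104 and 105 in antibody-labelled livers, and 113, 146 and 141 in wild type. The 3 groups overlapped. Slc1a5 had a log2 fold change of -0.33 in knockout-labelled (SE 0.23, limma adjusted p = 0.567) and -0.19 in antibody-labelled livers (SE 0.23, limma adjusted p = 0.892). With each library left out in turn, the knockout-labelled value ran from -0.52 (without knockout-labelled library 2) to -0.22. The antibody-labelled value ran from -0.35 (without antibody-labelled library 1) to -0.10 (without antibody-labelled library 2).

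**Figure D2:**
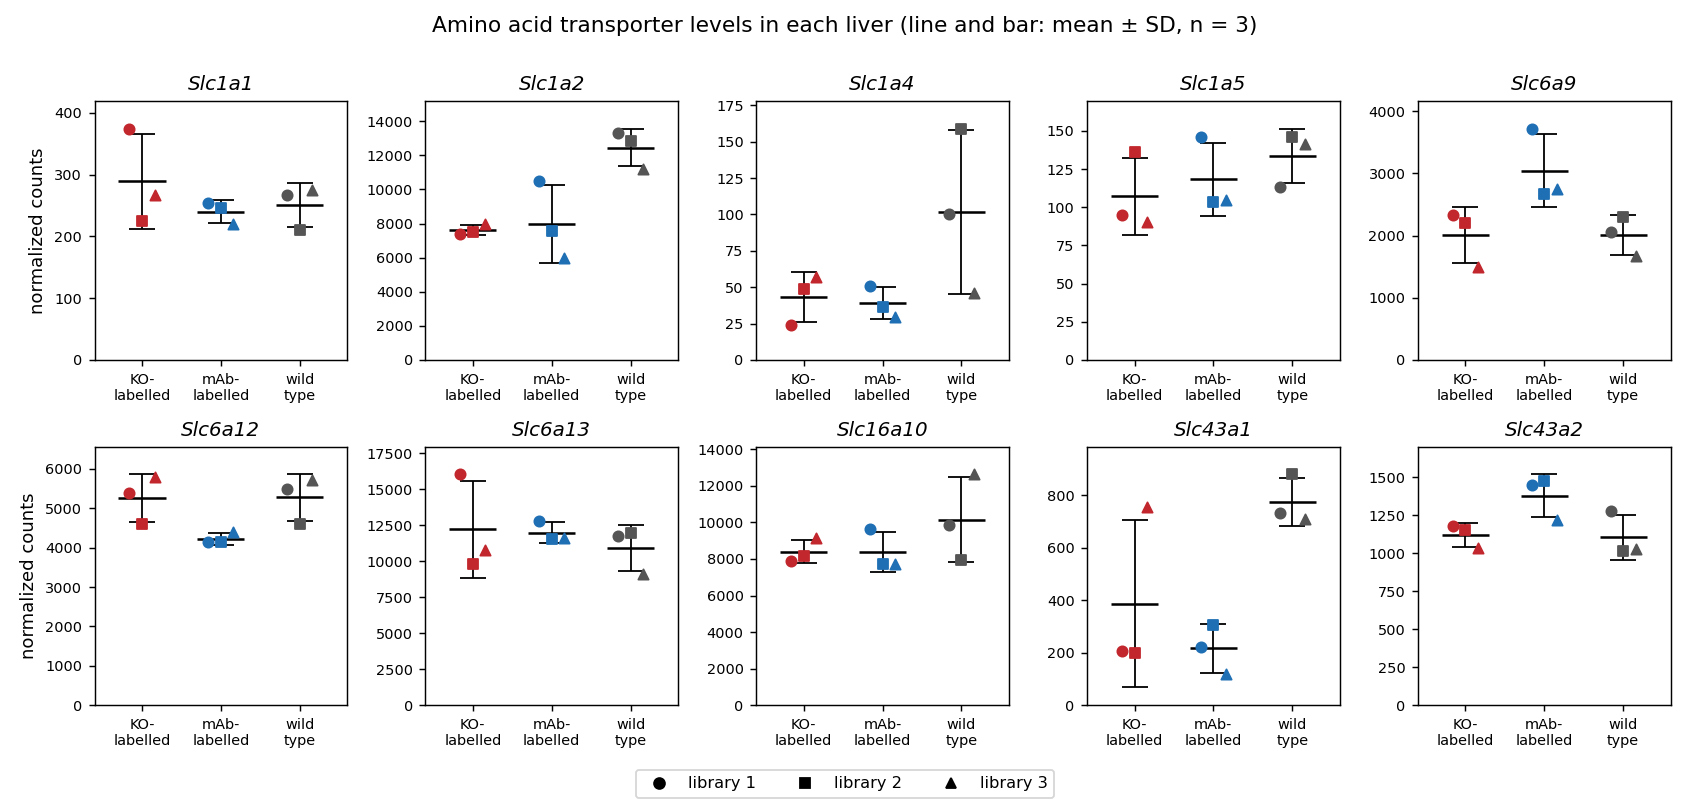
Normalized counts of each transporter (y axes, from 0, 1 panel per gene) in the 3 livers of each group (x axis: knockout-labelled, antibody-labelled, wild type), with the mean and SD as a line and bar and the marker shape giving the library number. Slc1a2 is lower in all 6 livers of the labelled groups than in wild type, and Slc43a1 of knockout-labelled library 3 lies at 755, beside the wild-type livers.

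Slc6a9 encodes a sodium- and chloride-coupled glycine carrier (ENSMUSG00000028542, chromosome 4, 117507111 to 117547803, plus strand). It had 2325, 2203 and 1494 normalized counts in knockout-labelled livers, 3717, 2669 and 2747 in antibody-labelled livers, and 2064, 2300.3 and 1668 in wild type. All 3 antibody-labelled livers lay above the other 6. The means were 2008 ± 449, 3045 ± 584 and 2011 ± 319 normalized counts in knockout-labelled, antibody-labelled and wild-type livers (SD, n = 3 each). The log2 fold change was 0.59 in antibody-labelled against wild type (SE 0.19, limma adjusted p = 0.220) and 0.61 in antibody-labelled against knockout-labelled livers (SE 0.19, limma adjusted p = 0.201). In knockout-labelled against wild type it was -0.02 (95% interval -0.43 to 0.39). Slc6a9 missed the threshold in all 3 comparisons and under all 19 alternatives, in which the antibody-labelled change against wild type ran from 0.44 to 0.70. Of 4 genes that overlap it on the other strand, Ccdc24 had the highest mean, at 7.14% of that of Slc6a9.

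Slc6a12 encodes the betaine carrier (ENSMUSG00000030109, chromosome 6, 121293094 to 121315793, plus strand). It had 5370.1, 4599 and 5783 normalized counts in knockout-labelled livers, 4134, 4129 and 4401 in antibody-labelled livers, and 5484, 4604 and 5714 in wild type. The antibody-labelled livers were the 3 lowest, by a narrow margin, and the other groups overlapped. Its log2 fold change was -0.31 in antibody-labelled against wild type (SE 0.12, limma adjusted p = 0.350) and -0.31 in antibody-labelled against knockout-labelled livers (SE 0.12, limma adjusted p = 0.297). In knockout-labelled against wild type it was -0.0048 (95% interval -0.26 to 0.25).

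Slc6a13 lies next to Slc6a12 on chromosome 6, 121250245 to 121287751, on the same strand, with 5342 bases between the genes (ENSMUSG00000030108). It had 16038, 9809 and 10819 normalized counts in knockout-labelled livers, 12829.7, 11567 and 11607 in antibody-labelled livers, and 11786, 11939 and 9116 in wild type. Knockout-labelled library 1 was the highest and the groups overlapped. The log2 fold changes against wild type were 0.14 in knockout-labelled (SE 0.17, limma adjusted p = 0.773) and 0.14 in antibody-labelled livers (SE 0.17, limma adjusted p = 0.889). With each library left out in turn, the knockout-labelled value ran from -0.08 (without knockout-labelled library 1) to 0.28 (without knockout-labelled library 2), and it was 0.0094 without wild-type library 3. The antibody-labelled value ran from 0.015 (without wild-type library 3) to 0.21 (without wild-type library 2). Across the 9 livers the log2 levels of these adjoining genes had a Pearson correlation of -0.14, given as a description.

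Slc16a10 carries phenylalanine, tyrosine and tryptophan, and also thyroid hormones (ENSMUSG00000019838, chromosome 10, 39753341 to 39862062, minus strand). It had 7909.9, 8178 and 9116 normalized counts in knockout-labelled livers, 9611, 7734 and 7737 in antibody-labelled livers, and 9865, 7959 and 12617 in wild type. Wild type spread widest and the groups overlapped. Slc16a10 had a log2 fold change of -0.25 in knockout-labelled (SE 0.16, limma adjusted p = 0.524) and -0.26 in antibody-labelled livers (SE 0.16, limma adjusted p = 0.679), and -0.01 (95% interval -0.36 to 0.34) between the labelled groups. Against wild type these values depended on the wild-type libraries. Without wild-type library 3 they were -0.08 in knockout-labelled and -0.09 in antibody-labelled livers. Without wild-type library 2 they were -0.41 in knockout-labelled and -0.42 in antibody-labelled livers, with unadjusted limma p of 0.0221 and 0.0193.

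Slc43a1 carries leucine, isoleucine, valine, phenylalanine and methionine (ENSMUSG00000027075, chromosome 2, 84679007 to 84703751, plus strand). It had 209, 199 and 755 normalized counts in knockout-labelled livers, 224, 307 and 120.4 in antibody-labelled livers, and 735, 879.8 and 711 in wild type. All 3 antibody-labelled livers and the first and second knockout-labelled livers lay between 120.4 and 307, under the lowest wild-type value of 711, while knockout-labelled library 3 lay within the wild-type range. The means were 388 ± 318, 217 ± 93.5 and 775 ± 91.6 normalized counts in knockout-labelled, antibody-labelled and wild-type livers (SD, n = 3 each).

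The log2 fold change of Slc43a1 was -1.92 in antibody-labelled against wild type (SE 0.53, limma adjusted p = 0.190), the lowest of the 10, and -1.29 in knockout-labelled against wild type (SE 0.53, limma adjusted p = 0.335). All 3 groups share the estimate of spread, and knockout-labelled library 3 entered it. Without that library the antibody-labelled change was the same in size and passed (SE 0.28, limma adjusted p = 0.00978), and it also passed when the fit held the antibody-labelled and wild-type livers alone (SE 0.31, limma adjusted p = 0.0308). The knockout-labelled change was -1.91 without library 3 and still missed the threshold (limma adjusted p = 0.0604). It was -0.99 without knockout-labelled library 1 and -0.96 without knockout-labelled library 2, with unadjusted limma p of 0.133 and 0.131. Antibody-labelled against knockout-labelled it was -0.64 (95% interval -1.85 to 0.58), -0.01 without knockout-labelled library 3, -0.27 without antibody-labelled library 3 and -0.97 without knockout-labelled library 2.

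Slc43a2, the other large neutral amino acid carrier of the family (ENSMUSG00000038178, chromosome 11, 75345196 to 75391077, plus strand), had 1176, 1151 and 1033 normalized counts in knockout-labelled livers. It had 1444, 1472 and 1216 in antibody-labelled livers, and 1275, 1012 and 1024 in wild type. The antibody-labelled livers lay above all knockout-labelled livers and overlapped with wild type. Slc43a2 had a log2 fold change of 0.32 in antibody-labelled (SE 0.13, limma adjusted p = 0.387) and 0.03 in knockout-labelled livers (SE 0.13, limma adjusted p = 0.952), each against wild type, and 0.30 between the labelled groups (SE 0.13, limma adjusted p = 0.342). The sign of the Slc43a2 value was thus opposite to that of Slc43a1 in antibody-labelled livers.

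**Figure D3:**
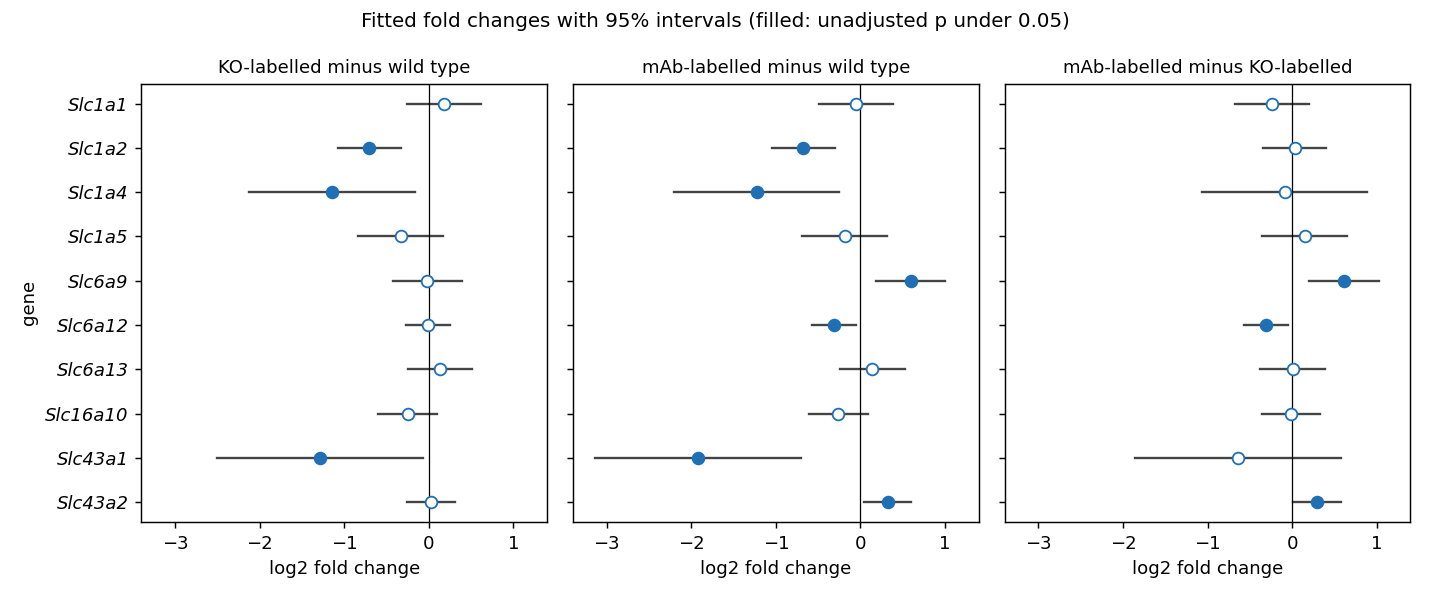
Log2 fold change of each transporter (x axis) with its 95% interval in the 3 comparisons, with genes down the y axis and filled points where the unadjusted p was under 0.05. The interval of Slc1a2 runs from -1.08 to -0.33 in knockout-labelled and from -1.05 to -0.30 in antibody-labelled livers against wild type, and the intervals of Slc1a4 and Slc43a1 are the widest.

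Counted over the 10, knockout-labelled against wild type gave 0 transporters past limma's adjusted threshold, against 0.155% of all genes (0.0599% higher and 0.0949% lower). With no adjustment, 3 had a limma p under 0.05, all lower (Slc1a2, Slc1a4 and Slc43a1), against 13.8% of all genes (5.61% higher and 8.16% lower). In 1, Slc1a2, the groups did not overlap, against 16.4% of all genes (7.09% higher and 9.35% lower). Their median log2 fold change was -0.13, beside -0.01 for all genes tested.

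Antibody-labelled against wild type also gave 0 of 10, where 1.34% of all genes passed (0.714% higher and 0.624% lower). At an unadjusted limma p under 0.05 there were 6, against 10.3% of all genes (5.74% higher and 4.53% lower). They were 4 lower (Slc1a2, Slc1a4, Slc6a12 and Slc43a1) and 2 higher (Slc6a9 and Slc43a2). The groups did not overlap in 4, against 19.2% of all genes (9.65% higher and 9.54% lower), with Slc1a2, Slc6a12 and Slc43a1 lower and Slc6a9 higher. The median log2 fold change of the 10 was -0.22, beside 0.0022 for all genes.

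Antibody-labelled against knockout-labelled livers gave 0 of 10, where 0.28% of all genes passed (0.19% higher and 0.0899% lower). At an unadjusted limma p under 0.05 there were 3, against 13.3% of all genes (7.78% higher and 5.53% lower), with Slc6a9 and Slc43a2 higher and Slc6a12 lower. Those 3 were also the ones whose groups did not overlap, against 17.2% of all genes (9.82% higher and 7.38% lower). The median was -0.0032, beside 0.02 for all genes.

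**Figure D4:**
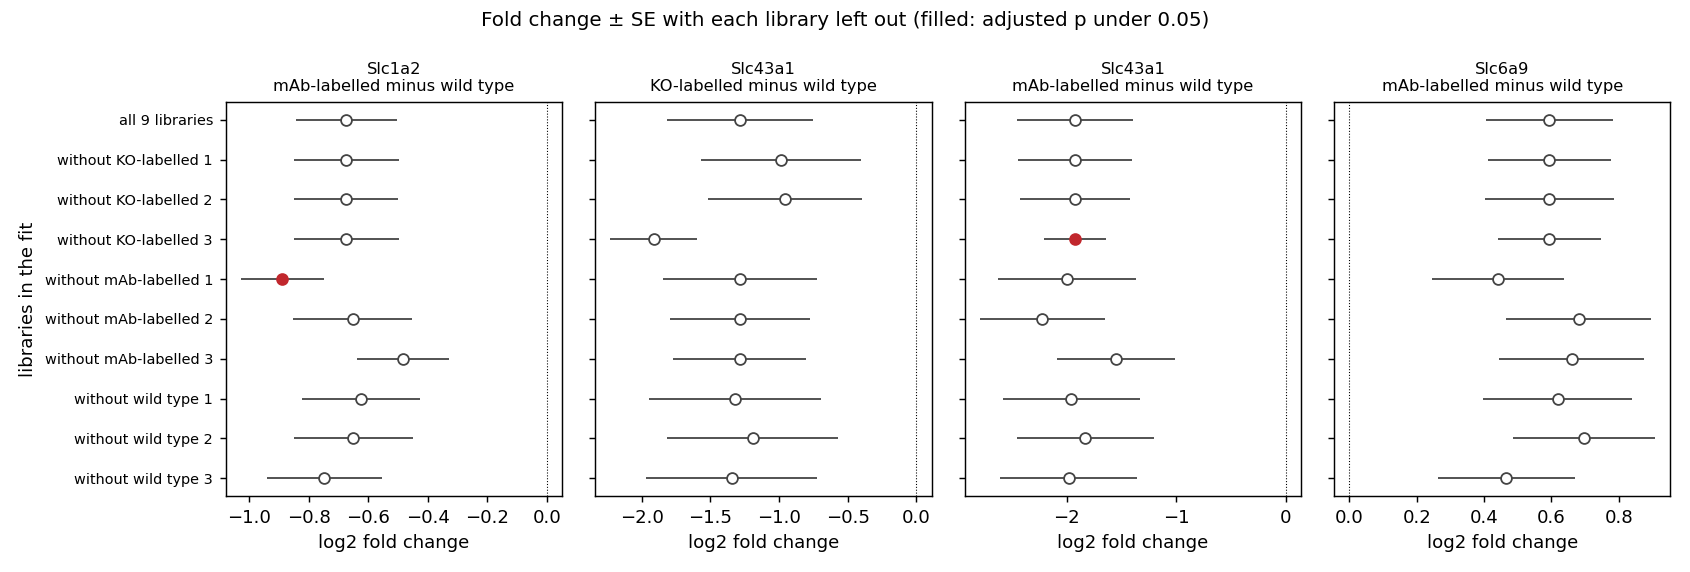
Log2 fold change with its SE (x axis) when each library in turn was left out of the fit (y axis), for Slc1a2, Slc43a1 and Slc6a9, with filled points where the limma adjusted p was under 0.05. Slc1a2 passed without antibody-labelled library 1 (-0.89), and Slc43a1 of antibody-labelled livers passed without knockout-labelled library 3, where the fold change stayed at -1.92 and the SE was 0.28.

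Among themselves, the log2 levels of Slc1a2, Slc1a4 and Slc43a1 had Pearson correlations of 0.74 to 0.81 over the 9 livers, and Slc6a9 and Slc43a2 one of 0.76. The lowest of the 45 pairs was Slc6a9 with Slc6a12, at -0.87. These values include the differences between groups, share libraries and depth, and carry no test. Of the other tested genes at or above the median level (10014 or 10015 for each transporter), the 2 most like each transporter had correlations of 0.89 to 0.98. Among them were Rdh9 for Slc1a2, Leng1 and Rbx1 for Slc1a4, and Kcnn1 and Ttc38 for Slc43a1. For Slc6a9 they were Scpep1 and Coro1c, and for Slc6a12 they were Gnmt, the enzyme that methylates glycine, and Gm12992. For Slc6a13 they were Akr1a1 and Aars2, for Slc16a10 Foxo3 and Lgr4, for Slc43a2 Tob2 and Slc25a37, and for Slc1a5 Mpp5 and Hpgds. For Slc1a1 they were mmu-mir-2134-4 and Gm5822, the pseudogene that lies within it.

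The other members of the 4 families were counted next. Of 34 listed, 33 were in the table, 22 were tested and 0 passed limma's adjusted threshold in any comparison. At an unadjusted limma p under 0.05, 2 were lower in knockout-labelled against wild type, against 13.8% of all genes in either direction. In antibody-labelled against wild type 1 was higher and 1 lower (10.3% of all genes), and between the labelled groups 3 were higher (13.3% of all genes). The ones with the smallest p were Slc6a6, the taurine carrier, at 0.56 in antibody-labelled against knockout-labelled livers (limma adjusted p = 0.0779), and Slc16a12, a creatine carrier, at 0.59 in the same comparison (limma adjusted p = 0.118). Of 27 other plasma membrane and lysosomal amino acid transporters, 23 were tested. Past limma's adjusted threshold, 1 was lower in knockout-labelled against wild type, where 0.155% of all genes passed. In antibody-labelled against wild type 2 were lower, against 1.34% of all genes. In this list Slc7a2, a carrier of cationic amino acids, fell to 32652 ± 1256 normalized counts in knockout-labelled livers and 29360.4 ± 2574 in antibody-labelled livers, against 72236 ± 17429.7 in wild type (SD, n = 3 each). Slc7a2 passed against wild type in both, at -1.12 in knockout-labelled (limma adjusted p = 0.0284) and -1.27 in antibody-labelled livers (limma adjusted p = 0.00395). Slc3a1, the partner subunit of a cystine carrier, was lower in antibody-labelled livers, with a log2 fold change of -1.07 (limma adjusted p = 0.0109). In knockout-labelled livers Slc3a1 was at -0.92 and missed the threshold (limma adjusted p = 0.0663). It also lay under all wild-type livers there, where the groups did not overlap in 16.4% of all genes (9.35% lower). Between the labelled groups Slc3a1 was at -0.15 (limma adjusted p = 0.749). No other gene of this list passed in any comparison.

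Enzymes that use the carried amino acids were counted in the same way. Of 13 enzymes of glutamate and glutamine, 1 was lower and 12 did not pass in knockout-labelled against wild type, where 0.155% of all genes passed. The lower one was Got1, an aspartate aminotransferase, at -1.93 (limma adjusted p = 0.0284). At an unadjusted limma p under 0.05 there were 4, all lower, against 13.8% of all genes (8.16% lower). In antibody-labelled against wild type 4 were lower and 9 did not pass, where 1.34% of all genes passed. The lower ones were Got1 at -3.16, Oat at -2.38, Gls2, the liver glutaminase, at -1.78 and Abat, which breaks down GABA, at -0.60. In knockout-labelled livers Oat, Gls2 and Abat were at -1.25, -1.18 and -0.32 (limma adjusted p = 0.0663, 0.139 and 0.248). Each of them lay under all wild-type livers there, in a comparison where the groups did not overlap in 16.4% of all genes (9.35% lower). The list's median was -0.13 in knockout-labelled and -0.24 in antibody-labelled livers. Glul, the glutamine synthetase of the same pericentral cells as Slc1a2, was at 0.11 and 0.19 (limma adjusted p = 0.712 and 0.700). Glul was singled out after its values were seen.

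Of 20 enzymes of glycine, serine, betaine and taurine, 0 passed limma's adjusted threshold in knockout-labelled against wild type. At an unadjusted limma p under 0.05 there were 7, 5 higher and 2 lower, against 13.8% of all genes (5.61% higher and 8.16% lower). In antibody-labelled against wild type, where 1.34% of all genes passed, 1 was higher and 1 was lower. The higher was Psat1 of serine synthesis at 2.22 (limma adjusted p = 0.0423). Its level was low, with 52.7 to 137 normalized counts in antibody-labelled, 16.6 to 58.4 in knockout-labelled and 17.4 to 25.3 in wild-type livers. The lower was Sdsl, a serine dehydratase relative, at -1.78 (limma adjusted p = 0.00169), and at -0.87 in knockout-labelled livers (limma adjusted p = 0.0873). At an unadjusted limma p under 0.05, 2 of the list were higher and 4 lower in antibody-labelled against wild type, against 10.3% of all genes. Bhmt, which uses betaine to remethylate homocysteine, was the single gene of this list to pass between the labelled groups, at -0.80 (limma adjusted p = 0.0470). It had 49932 ± 5581 normalized counts in antibody-labelled, 86897 ± 4432 in knockout-labelled and 55837 ± 8764 in wild-type livers (SD, n = 3 each). The knockout-labelled group was thus the high one. Against wild type Bhmt was at 0.65 in knockout-labelled (limma adjusted p = 0.087) and -0.15 in antibody-labelled livers (limma adjusted p = 0.840). Slc6a12, the betaine carrier, was at -0.31 between the labelled groups and did not pass. For Slc6a12 the antibody-labelled group was the low one.

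Of 20 enzymes of aromatic and branched-chain amino acids, 0 passed limma's adjusted threshold in knockout-labelled against wild type. At an unadjusted limma p under 0.05 there were 4, all lower, against 13.8% of all genes (8.16% lower). In antibody-labelled against wild type 2 were lower, where 1.34% of all genes passed. Among them was Hgd of tyrosine breakdown at -1.28 (limma adjusted p = 0.0053), which was at -0.53 in knockout-labelled livers (limma adjusted p = 0.221). At an unadjusted limma p under 0.05 there were 8 in antibody-labelled against wild type, all lower, against 10.3% of all genes (4.53% lower). The groups did not overlap there in 15, all lower, against 19.2% of all genes (9.54% lower). In knockout-labelled against wild type they did not overlap in 4, 1 higher and 3 lower, against 16.4% of all genes. The list's median was -0.13 in knockout-labelled and -0.25 in antibody-labelled livers. Slc16a10, which carries the same aromatic amino acids, was at -0.26 in antibody-labelled livers and did not pass.

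**Figure D5:**
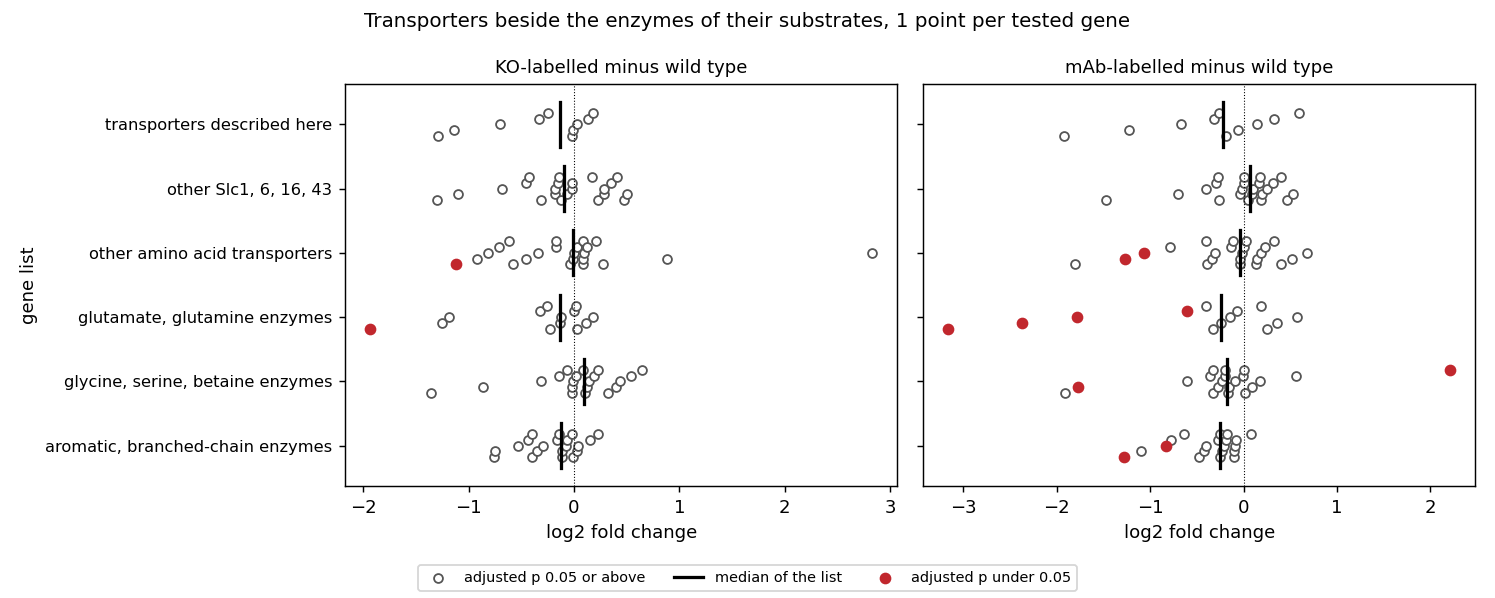
Log2 fold change against wild type (x axis) of the tested genes in 6 lists (y axis), knockout-labelled on the left and antibody-labelled on the right, with 1 point per gene, red where the limma adjusted p was under 0.05, and a bar at each list's median. None of the 10 transporters is red, and Got1 at -3.16 and Psat1, a gene of low level, at 2.22 lie at the ends of the right panel.

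Position in the liver lobule was looked at through marker lists that hold some of the transporters. Of 13 pericentral genes, Slc1a2 and Slc1a4 among them, 0 passed limma's adjusted threshold in knockout-labelled against wild type. At an unadjusted limma p under 0.05 there were 7, 1 higher and 6 lower, against 13.8% of all genes (5.61% higher and 8.16% lower). In antibody-labelled against wild type 3 were lower (Oat, Rhbg at -1.15 and Gulo at -0.66) and 10 did not pass, where 1.34% of all genes passed. In knockout-labelled livers Rhbg was at -0.37 and Gulo at -0.38 (limma adjusted p = 0.322 and 0.221). The medians were -0.44 in knockout-labelled and -0.59 in antibody-labelled livers. Of 13 periportal genes, Slc6a13 among them, 2 were lower in antibody-labelled livers (Gls2 and Ass1 at -1.19) and 0 passed in knockout-labelled against wild type. In knockout-labelled livers Ass1 was at -0.53 (limma adjusted p = 0.208). At an unadjusted limma p under 0.05, 2 periportal genes were higher and 3 lower in knockout-labelled against wild type. The medians were 0.14 in knockout-labelled and -0.35 in antibody-labelled livers.

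Of 16 cAMP-responsive genes, 1 passed in antibody-labelled against wild type, where 1.34% of all genes passed. It was Pde4b, a phosphodiesterase, at -2.13 (limma adjusted p = 0.0138), which was at -1.47 in knockout-labelled livers (limma adjusted p = 0.103). Of 16 ATF4-responsive genes, 1 passed in antibody-labelled against wild type, Psat1, whose level was low. Neither list had a gene past limma's adjusted threshold in knockout-labelled against wild type. At an unadjusted limma p under 0.05, 1 cAMP-responsive gene was higher and 1 lower there, and 5 ATF4-responsive genes were higher and 1 lower. Of all genes, 5.61% were higher and 8.16% lower. In antibody-labelled against wild type, 0 cAMP-responsive genes were higher and 6 lower at that unadjusted p, and 5 ATF4-responsive genes were higher and 1 lower. There, 5.74% of all genes were higher and 4.53% lower. The cAMP-responsive list had medians of -0.37 in knockout-labelled and -0.63 in antibody-labelled livers. The ATF4-responsive list had medians of 0.36 in knockout-labelled and 0.43 in antibody-labelled livers. Slc1a4, with the ATF4 letters at its start site, was at -1.14 and -1.23 and did not pass. Whether ATF4 acts on Slc1a4 in these livers was not tested.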

How the data were processed

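Poly(A)-selected liver RNA was sequenced as 50 bp paired-end reads on an Illumina HiSeq2500, per the labels' protocols. FastQC, TopHat2 2.0, SAMtools and the mouse build mm9 are named in the submitters' processing notes. How reads were counted and scaled is not given in the sources used here. What the authors deposited is a normalized signal for each gene and library, with no value under 1, called normalized counts here. The most frequent value over 1 in a library served as an estimate of 1 read (1.50 to 4.74), and 40.8% to 45.8% of values under 10 reads were then whole within 0.01 read, so whole reads were not recovered and count models were not run.

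Genes above 1 in at least 3 of 9 libraries were tested (20029 of 37583) as log2(value + 1), with limma 3.58.1 in R 4.3.3 (group as factor, mean-variance trend, robust estimation, Benjamini-Hochberg threshold 0.05). Fold changes are on this log2(value + 1) scale, which understates changes of low genes. The smallest exact permutation p for 3 against 3 livers is 0.1, so no permutation test was run. The fit was tested on simulated data. Titles number the samples of a group without stating separate animals or batches. The p-values set group differences against limma's estimate of the spread between these samples, which draws on all 9 libraries and all genes tested. Whether that spread is one between animals is not stated.

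The transporters, gene lists and tests were chosen with earlier results of these data known. Gcgr and the 10 transporters were always named. From each list the genes named are those past the threshold in any comparison, up to 5, or else the 2 with the smallest unadjusted p. Likewise named are the 2 genes most correlated with each transporter. Some genes that this rule picks are not reported here. Alternatives covered the pseudocount, the filter, scaling, weights, a replicate block and leaving out each library.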

Additional observations from a re-analysis of the deposited data

How the results depend on the processing

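The 30 fold changes of the 10 transporters were recomputed under 19 alternatives, which gave 570 values. Of these, 4 newly passed the threshold, as given above for Slc1a2 and Slc43a1, 32 changed sign, all of values that had not passed, and 0 of the transporters had passed to begin with. The cause of these shifts was not tested. Transporters past the threshold in antibody-labelled against wild type numbered 1 with a weight per library and 1 with only the 6 libraries compared, and 0 to 1 with each library left out (1 without antibody-labelled library 1 and 1 without knockout-labelled library 3). In the other comparisons it was 0 throughout.

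Signs also changed with the scaling or weights. In knockout-labelled against wild type, Slc6a12 was at 0.0078 with median-of-ratios size factors and 0.033 with library weights, and Slc43a2 at -0.00099 with each library scaled to the same total and -0.0053 with weights. Scaled to the same total, Slc1a1 was at 0.026 in antibody-labelled against wild type, and Slc1a4 at 0.015 and Slc16a10 at 0.097 in antibody-labelled against knockout-labelled. Slc6a13 was there at -0.012 with median-of-ratios size factors. That total scaling put the median of all genes at 0.128 between the labelled groups, against 0.0244.

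With each library left out in turn, knockout-labelled against wild type ran from -0.0196 to 0.346 for Slc1a1, -0.145 to 0.183 for Slc6a9, -0.0988 to 0.0875 for Slc6a12, -0.0768 to 0.278 for Slc6a13 and -0.0318 to 0.135 for Slc43a2. Slc1a1 ran from -0.177 to 0.0163 in antibody-labelled against wild type. Between the labelled groups the ranges were -0.184 to 0.222 for Slc1a2, -0.464 to 0.151 for Slc1a4, -0.0131 to 0.331 for Slc1a5, -0.136 to 0.219 for Slc6a13 and -0.116 to 0.0481 for Slc16a10.

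Counts over all genes moved more. Knockout-labelled against wild type gave 31 genes, but 65 with no filter, 19 with total scaling, 0 without trend and robust estimation (2402 at an unadjusted p under 0.05), 15 with only the 6 libraries compared, and 4 to 145 with a library left out. Antibody-labelled against wild type gave 268 (143 higher, 125 lower), but 71 without trend and robust estimation, 666 with weights, 173 higher and 83 lower with total scaling, and 105 to 290 with a library left out. Antibody-labelled against knockout-labelled gave 56, but 23 with a pseudocount of 10, 29 with median-of-ratios size factors, 1 without trend and robust estimation, 19 with weights, 16 with only the 6 libraries compared, 63 higher and 18 lower with total scaling, and 1 to 82 with a library left out.

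Deviations from the group means had correlations of -0.136 to 0.126 between same-numbered libraries and -0.124 to 0.136 between the others. With 3 libraries per group, deviations within a group depend on each other, so these values cannot settle whether the numbers pair the samples. A replicate block gave 38, 251 and 45 genes in the 3 comparisons in the order above (22 higher and 23 lower in the last), and 0 transporters. Depth limits Slc1a4 and Slc1a5 most, with as few as 5 and 20 estimated reads in a library.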
